A study of Mus musculus with 18 samples.

Results

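Dendritic cells (DCs) embedded in a gel of 3.5 mg/ml bovine collagen were compared with DCs kept without collagen, here called suspension, in 9 of the 18 libraries of the series. The 9 are the 3 libraries titled 3.5 mg/ml collagen and the 6 suspension controls, chosen by their titles, with the replicate number as a block in the fit. All cells were grown from bone marrow of wild-type C57Bl6/J mice aged 8 to 12 weeks in medium with GM-CSF hybridoma supernatant, matured on day 8 with lipopolysaccharide (LPS) at 200 ng/ml for 24 hours, and then loaded into migration chambers. All 9 libraries thus come from LPS-treated cells. The methods describe taking the gels for RNA 5 hours after a gradient of the chemokine CCL19 had been introduced. Of the suspension controls, 3 are titled plus CCL19 and 3 without it, but titles and library names contradict each other on CCL19, so the 6 were pooled and no CCL19 effect is given. All 3 gel libraries are titled towards a CCL19 source. For the controls without CCL19, an effect of the gel therefore cannot be told apart from one of CCL19. The gel libraries of replicates 1 to 3 are C1 to C3, the suspension libraries titled plus CCL19 are P1 to P3, and those titled without CCL19 are N1 to N3. Libraries of 1 replicate number also share a date and a flow cell lane in their names.

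DCs are the antigen-presenting cells that carry antigen from tissue to lymph nodes, and mature DCs follow CCL19 through their receptor CCR7. In a fibrillar gel they squeeze through pores by actomyosin contraction and actin protrusion, with the nucleus and the centrosome steering between paths. Cells under proteotoxic or oxidative strain induce chaperones through the transcription factor HSF1 and antioxidant enzymes through NRF2, and LPS-matured DCs also secrete cytokines and chemokines.

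In the gel, 10 of 17 genes of cytosolic chaperones, 8 of 21 antioxidant genes, 6 of 18 chemokine genes and 36 of 77 genes of cytosolic ribosomal proteins were higher than in suspension. Lower in the gel were 8 of 31 genes of sterol and fatty acid synthesis, 5 of 27 centrosome genes and all 8 eosinophil markers tested. Over all 13844 genes tested, 2551 (18.4%) passed a false discovery rate (FDR) of 0.1 in edgeR's quasi-likelihood test, 1112 of them (8.03%) higher and 1439 (10.4%) lower in the gel. Among these, 460 rose and 802 fell by more than 2-fold, and 2496 of the 2551 moved in the direction of the fit in all 3 replicates, each gel library being set against the mean of its 2 suspension libraries. The levels (CPM, read counts scaled to library size with TMM factors) of the 3 gel and 6 suspension libraries did not overlap in 542 of all genes tested on the high side (3.92%) and in 871 on the low side (6.29%). Leaving out each of the 9 libraries in turn, 254 of the 1112 rises and 331 of the 1439 falls passed in all 9 fits, which is the meaning of a call that held in the following. Without the replicate block 679 genes passed, 273 higher and 406 lower. With offsets for GC content and exon length in the blocked fit 2686 passed, 1653 higher and 1033 lower, and the median GC content was 45.6% in genes called higher, 54.0% in genes called lower and 50.3% in all genes tested.

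**Figure D1:**
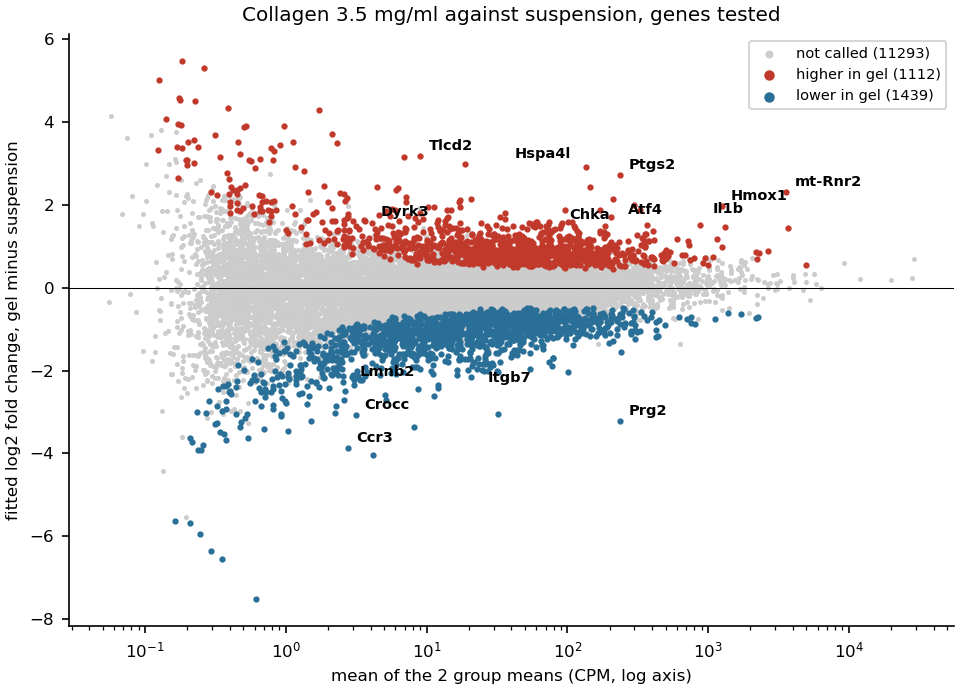
Each point is 1 of the 13844 genes tested, with the mean of the gel and suspension group means in CPM (log axis) against the fitted log2 fold change of gel minus suspension. Red points are the 1112 genes called higher and blue points the 1439 called lower at an FDR of 0.1, and 14 genes described in the text are named.

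The libraries held 13062944 to 16084553 counts in the gel and 13849590 to 23014871 in suspension, and 3 counts correspond to 0.130 to 0.230 CPM, a floor that covers counting error only and, like the marker sums given later, is set on raw library totals without TMM factors. Mitochondrial genes took 1.63% to 2.39% of the counts in the gel and 0.583% to 1.68% in suspension. All libraries of replicates 1 and 2 held Xist and no more than 2 Y-linked counts each, and those of replicate 3 held no Xist and 1066 to 1319 Y-linked counts, although the methods name male mice, so the replicate block also takes up this difference. The summed level of 16 DC markers was 40618 to 101222 CPM in the gel and 34864 to 101454 CPM in suspension. Most of this sum came from few genes, with Ccl22 at 46712 and Cd74 at 29735 of the 101222 CPM in C3. Of these 16, the cytokine receptor gene Flt3 was lower in the gel (3.70, 5.27 and 11.3 CPM in C1 to C3, against 6.76 to 24.4 CPM (median 10.1) in suspension), a call lost without C1 or C3 (adjusted p up to 0.184). The labels name biological replicates without saying what was separate. The p-values measure the spread left among all 18 libraries of the fit once group and replicate number are taken out.

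Chaperones of the cytosol, which hold or refold unfolded proteins, had the largest share of rises among the 33 gene lists. Of 17 genes tested, 10 (58.8%) were called higher and 0 lower, with a median log2 fold change of 0.86 against −0.027 over all genes tested. Promoter windows of some of these genes hold the letters of the element that HSF1 binds. RefSeq windows (GRCm38.p6) from 250 bases before to 50 after the start were at hand for 10001 of the 13844 genes tested, and the heat shock element core GAANNTTC, searched on both strands (it is its own reverse complement), was in 5.60% of them. It was in 7 of 14 windows of the chaperone list (50.0%), namely in 4 of the 8 of genes called higher and in 3 of the 6 of genes not called (Hspe1, Bag3 and Chordc1), in 6.02% of the windows of all genes called higher and in 3.98% of those called lower. The 4 windows of called chaperones that hold it are shown so that the letters can be read, and the share with a match was the same among members called and not called. They are written 5′ to 3′ on the strand of the gene, with the match in capitals, for Hspa1a at chr17:34972107-34972406 (minus strand), Hspa1b at chr17:34959189-34959488 (minus strand), Hsph1 at chr5:149636287-149636586 (minus strand) and Dnaja1 at chr4:40722218-40722517 (plus strand).
Hspa1a: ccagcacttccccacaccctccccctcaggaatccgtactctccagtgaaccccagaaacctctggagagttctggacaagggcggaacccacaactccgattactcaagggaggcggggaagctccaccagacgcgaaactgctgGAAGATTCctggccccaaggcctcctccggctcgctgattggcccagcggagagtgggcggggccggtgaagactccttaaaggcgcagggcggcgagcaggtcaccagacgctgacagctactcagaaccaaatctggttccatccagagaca
Hspa1b: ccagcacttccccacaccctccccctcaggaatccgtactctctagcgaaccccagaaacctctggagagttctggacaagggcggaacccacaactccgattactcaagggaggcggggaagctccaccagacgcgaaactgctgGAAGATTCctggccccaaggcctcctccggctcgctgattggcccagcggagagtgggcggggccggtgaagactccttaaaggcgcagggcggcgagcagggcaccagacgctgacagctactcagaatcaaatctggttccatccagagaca
Hsph1: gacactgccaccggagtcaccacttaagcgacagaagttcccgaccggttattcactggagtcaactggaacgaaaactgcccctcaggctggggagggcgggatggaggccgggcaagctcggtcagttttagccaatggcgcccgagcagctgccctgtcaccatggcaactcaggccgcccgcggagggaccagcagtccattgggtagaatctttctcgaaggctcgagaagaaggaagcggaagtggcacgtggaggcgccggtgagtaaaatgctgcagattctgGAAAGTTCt
Dnaja1: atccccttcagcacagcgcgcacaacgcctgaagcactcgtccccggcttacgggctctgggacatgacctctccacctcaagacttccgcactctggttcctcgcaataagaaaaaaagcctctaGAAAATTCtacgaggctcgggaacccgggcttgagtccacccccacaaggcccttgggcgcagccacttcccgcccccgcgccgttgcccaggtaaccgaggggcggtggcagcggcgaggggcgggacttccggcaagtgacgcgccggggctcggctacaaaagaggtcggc
The windows searched for Hspa4l, Dnajb4, Dnajb1 and Hspa4, also called higher, held no match to these letters. Only 1 window per gene was searched, and 2044 of the 10001 genes have several listed. Dnajb4 and Dnajb1 have 2 each, of which the other was not searched. A match describes the letters and is not a measured binding site.

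Hspa4l had 386, 197 and 135 CPM in C1 to C3, against 16.1 to 50.7 CPM (median 28.8) in suspension. Hspa4l, a nucleotide exchange factor for HSP70, was above every suspension library in each gel library, by a fitted 7.59-fold (log2 fold change 2.92, SE 0.35, adjusted p = 0.000512). Hspa1b had 75.8, 18.3 and 6.55 CPM in C1 to C3, against 1.07 to 8.73 CPM (median 3.37) in suspension. Hspa1a had 20.2, 6.81 and 7.97 CPM in C1 to C3, against 1.00 to 4.21 CPM (median 2.42) in suspension. Hspa1a and Hspa1b encode the inducible HSP70 and are near-identical genes, so the split of reads between them is uncertain. Hspa1a did not overlap between the groups (log2 fold change 2.19, SE 0.33, adjusted p = 0.00133), and for Hspa1b C3 lay inside the suspension range (log2 fold change 2.99, SE 0.41, adjusted p = 0.00106). Dnajb4, an HSP40 cochaperone, had 46.5, 34.7 and 36.0 CPM in the gel and 8.87 to 22.3 CPM (median 12.8) in suspension, and the groups did not overlap (log2 fold change 1.50, SE 0.25, adjusted p = 0.00206). The constitutive HSP70 gene Hspa8 (log2 fold change 1.02) and the cochaperone Dnajb1 (0.94) rose by less, and these 6 calls held. The 4 others were Dnaja1 (1.16), Hsp90aa1 (1.07), Hspa4 (0.86) and the HSP110 gene Hsph1 (0.64), and Chordc1 had the largest change that did not pass (0.60, adjusted p = 0.246). All 4 were lost without C1 (adjusted p 0.136 to 0.257), Hspa4 also without C2, and Hsph1 also without C2, C3, P1, P2 or N1. Without the replicate block 5 of the 10 passed. Hspa8 and Dnajb1 no longer passed without replicate 1 in both groups (adjusted p = 0.149). Hspa8 no longer passed without the block (adjusted p = 0.198).

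**Figure D2:**
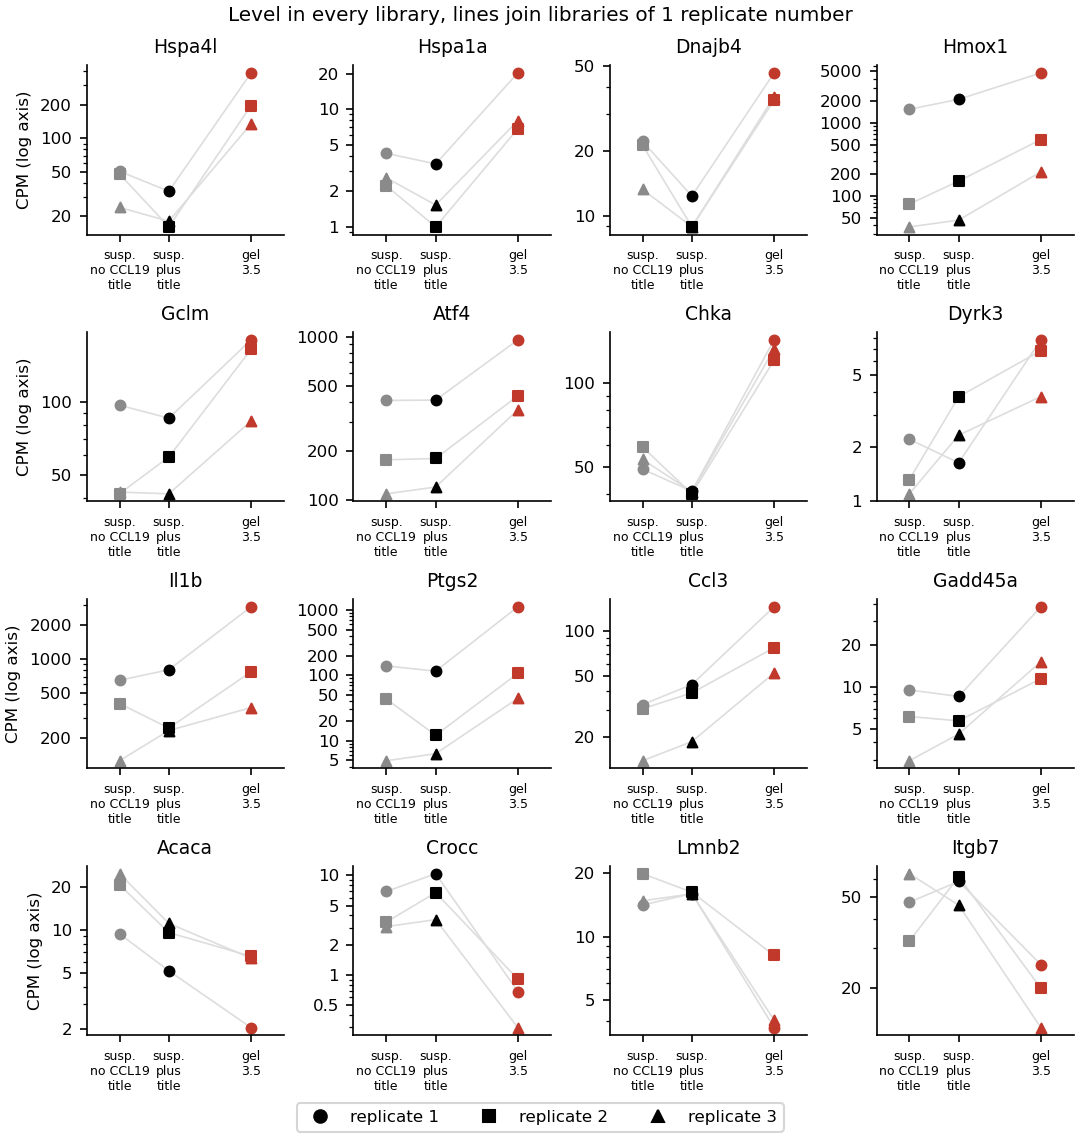
Each panel gives 1 gene in the 9 libraries, in CPM on a log axis, with circles, squares and triangles for replicates 1, 2 and 3, grey for suspension titled without CCL19, black for suspension titled plus CCL19, red for the gel, and lines joining libraries of 1 replicate number. The first 12 genes lie higher in the gel than in both suspension libraries of the same number even where the replicates differ several-fold among themselves, as for Hmox1, and Acaca, Crocc, Lmnb2 and Itgb7 lie lower.

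Targets of NRF2, which make glutathione and thioredoxin or degrade heme, were called higher in 8 of 21 (38.1%) and lower in 0, with a median log2 fold change of 0.37. Hmox1 had 4773, 588 and 213 CPM in C1 to C3, against 37.6 to 2083 CPM (median 118) in suspension. Hmox1 encodes heme oxygenase 1. It was high in both groups of replicate 1, so the ranges overlapped, and within replicates 1, 2 and 3 the gel exceeded suspension by 1.42, 2.41 and 2.34 on the log2 CPM scale (log2 fold change 1.97, SE 0.41, adjusted p = 0.00659). Gclm had 181, 166 and 83.5 CPM in C1 to C3, against 41.6 to 97.1 CPM (median 50.7) in suspension. Gclm encodes the modifier subunit of the enzyme that starts glutathione synthesis, and C3 lay inside the suspension range (log2 fold change 1.25, SE 0.23, adjusted p = 0.00370). Gclc, the catalytic subunit of that enzyme, rose 2.37-fold (log2 fold change 1.25, SE 0.28, adjusted p = 0.00942) and the peroxiredoxin gene Prdx1 2.26-fold (log2 fold change 1.18, SE 0.26, adjusted p = 0.00930). These 4 calls held, whereas those of Txnrd1, Slc7a11, Sqstm1 and Txn1, at log2 fold changes of 1.13, 1.03, 0.88 and 0.69, were lost without C1 (adjusted p 0.115 to 0.300). The largest change that did not pass was that of the ferritin heavy chain gene Fth1 (0.68, adjusted p = 0.217). Without the block 1 gene of the list passed. Gclc no longer passed without replicate 1 in both groups (adjusted p = 0.114). Hmox1, Gclc and Prdx1 no longer passed without the block (adjusted p 0.302 to 0.599).

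In the integrated stress response ATF4 raises genes of amino acid transport and synthesis. Of 26 genes of this response 4 (15.4%) were higher and 3 (11.5%) lower, with a median of −0.047. Over all genes tested 8.03% rose and 10.4% fell, so the share of falls lay near that of all genes. Atf4 had 960.1, 435 and 357 CPM in C1 to C3, against 109 to 410.1 CPM (median 178) in suspension. Atf4 itself was higher in the gel by 1.23, 1.29 and 1.64 on the log2 CPM scale within replicates 1 to 3 (log2 fold change 1.38, SE 0.23, adjusted p = 0.00221), and it was the single call of the list that held. Without the block 0 of the list rose. Cebpg did not pass (0.69, adjusted p = 0.115). Chaperones of the endoplasmic reticulum were higher in 3 of 19 genes and lower in 0, with a median of 0.23. Hspa5 had 981, 575 and 547 CPM in C1 to C3, against 304 to 487 CPM (median 384) in suspension. Hspa5 encodes BiP, the main chaperone of that compartment, and the groups did not overlap (log2 fold change 0.87, SE 0.19, adjusted p = 0.00964). Its cochaperone gene Dnajb9 rose 2.31-fold (log2 fold change 1.21, SE 0.22, adjusted p = 0.00370), both calls held, and the count without the block was 2. Hspa5 and Dnajb9 no longer passed without replicate 1 in both groups (adjusted p 0.125 to 0.206). Atf4 no longer passed without the block (adjusted p = 0.154). Dnajb9 no longer passed with N1 to N3 alone as controls (adjusted p = 0.120).

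Mediators that mature DCs secrete were higher in part. Of 18 chemokine genes 6 (33.3%) were called higher and 0 lower (median 0.43), and of 19 cytokine genes 4 higher and 1 lower (median 0.33). Ccl3 had 144, 77.3 and 52.6 CPM in C1 to C3, against 13.9 to 44.2 CPM (median 31.6) in suspension. Ccl3, an inflammatory chemokine, was higher in all 3 gel libraries than in any suspension library (log2 fold change 1.60, SE 0.30, adjusted p = 0.00418). Il1b had 2895, 771 and 373 CPM in C1 to C3, against 127 to 805 CPM (median 325) in suspension. Il1a had 629, 142 and 62.5 CPM in C1 to C3, against 16.5 to 129 CPM (median 60.5) in suspension. Both genes of interleukin 1 were higher in the gel within each replicate number, Il1b by 2.00, 1.29 and 1.11 and Il1a by 2.39, 1.46 and 1.88 on the log2 CPM scale, while their ranges over all numbers overlapped (log2 fold change 1.50, SE 0.29, adjusted p = 0.00438 for Il1b, and log2 fold change 1.87, SE 0.37, adjusted p = 0.00545 for Il1a). Calls of Cxcl2 (1.87) and Cxcl1 (1.45), which attract neutrophils, of Il6 (1.49) and of Il15 (1.12) were lost without C1 (adjusted p 0.154, 0.195, 0.125 and 0.117). Chemokine calls numbered 1 without C1 and 3 without C3 and cytokine rises 2 without C1, and without the replicate block 1 chemokine and 1 cytokine gene passed. Ccl3, Il1b and Il1a no longer passed without replicate 1 in both groups (adjusted p 0.112 to 0.125). Il1b and Il1a no longer passed without the block (adjusted p 0.150 to 0.163). Il1a no longer passed with N1 to N3 alone as controls (adjusted p = 0.101).

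Early response genes and cyclooxygenase 2 also differed. Ptgs2 had 1113, 107 and 44.3 CPM in C1 to C3, against 4.93 to 139 CPM (median 27.6) in suspension. Ptgs2 encodes cyclooxygenase 2, which makes prostaglandins, and in replicates 1 to 3 it was higher in the gel by 3.14, 2.22 and 2.97 on the log2 CPM scale (log2 fold change 2.72, SE 0.50, adjusted p = 0.00376). Of 22 immediate early genes 7 were higher and 1 lower (median 0.47), and the calls of Egr2, Ier3 and Klf2 held. Egr2 had 23.9, 27.0 and 15.2 CPM in C1 to C3, against 3.65 to 8.98 CPM (median 5.88) in suspension. Egr2, a zinc finger factor, rose 3.64-fold and the groups did not overlap (log2 fold change 1.87, SE 0.30, adjusted p = 0.00160). Klf2 had 2.47, 2.67 and 4.17 CPM in C1 to C3, against 6.24 to 28.5 CPM (median 10.9) in suspension. Klf2, a factor of leukocyte quiescence and trafficking, fell 3.75-fold, and here too the groups did not overlap (log2 fold change −1.91, SE 0.37, adjusted p = 0.00458). Ier3 rose by 1.51 on the log2 scale, and Fosb had the largest change that did not pass (1.93, adjusted p = 0.118). Interferon-stimulated genes were higher in 4 of 29 and lower in 1 (median 0.11), with Isg15 (1.02) as the call that held. In the lists of MAP kinase feedback (3 of 13 higher, 1 lower) and NF-kB feedback (2 of 17 higher, 0 lower) 0 calls held. Immediate early rises numbered 2 without C1, 4 without C2, 3 without C3 and 4 without N1, and the fit without the block called 1 immediate early rise, 1 MAP kinase feedback gene, 0 NF-kB genes and 0 interferon-stimulated genes. Isg15 no longer passed without replicate 1 in both groups (adjusted p = 0.179) or with N1 to N3 alone as controls (adjusted p = 0.127). Ptgs2, Ier3 and Isg15 no longer passed without the block (adjusted p 0.152 to 0.300).

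Choline kinase and the kinase DYRK3 were both higher in the gel. Chka had 143, 121 and 133 CPM in C1 to C3, against 40.2 to 59.1 CPM (median 45.2) in suspension. Chka (on chromosome 19 of GRCm38, from 3851773 to 3894369) encodes choline kinase alpha, the first enzyme of phosphatidylcholine synthesis from choline. Its gel mean of 132 ± 11.1 CPM (SD, n = 3) exceeded the suspension mean of 47.3 ± 7.88 CPM (SD, n = 6) by a fitted 2.84-fold without overlap (log2 fold change 1.51, SE 0.17, adjusted p = 0.000512), and the call held in all 9 omissions and without the block. Pcyt2 had 17.1, 18.1 and 16.7 CPM in C1 to C3, against 29.6 to 60.0 CPM (median 35.8) in suspension. Pcyt2, an enzyme of phosphatidylethanolamine synthesis, was lower (log2 fold change −1.13, SE 0.27, adjusted p = 0.0141), and the groups did not overlap. The list named for phosphatidylcholine synthesis also holds Pcyt2. Of its 14 genes 1 (7.14%) was higher and 3 (21.4%) lower, against 8.03% and 10.4% over all genes tested. Chka and Pcyt2 were the calls of this list that held. Dyrk3 had 7.82, 6.81 and 3.80 CPM in C1 to C3, against 1.10 to 3.79 CPM (median 1.92) in suspension. Dyrk3 encodes a kinase that dissolves stress granules and other condensates, and its gel libraries held 114, 97 and 51 counts. It rose 2.98-fold (log2 fold change 1.57, SE 0.32, adjusted p = 0.00571), and the lowest gel library, C3, lay within 0.1 CPM of the highest suspension library, P2. Of 11 DYRK, CLK and HIPK kinases 2 (18.2%) were higher and 1 (9.09%) lower, the latter near the share of all genes tested. Dyrk3 was the kinase call that held, and Clk4 did not pass (0.83, adjusted p = 0.145). Pcyt2 and Dyrk3 no longer passed without replicate 1 in both groups (adjusted p 0.110 to 0.157).

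Genes of growth arrest and apoptosis on the p53 and BCL2 list were higher in 6 of 19 and lower in 1 (median 0.12). Gadd45a had 37.9, 11.5 and 15.3 CPM in C1 to C3, against 2.96 to 9.54 CPM (median 5.94) in suspension. Gadd45a, a growth arrest gene, was 3.21-fold higher, and the groups did not overlap (log2 fold change 1.68, SE 0.30, adjusted p = 0.00330). Pmaip1 (NOXA), which promotes apoptosis, rose 2.36-fold (log2 fold change 1.24, SE 0.31, adjusted p = 0.0158), and these 2 calls held. The cell cycle inhibitor gene Cdkn1a did not pass (0.61, adjusted p = 0.133). Pcna had 87.7, 41.2 and 53.3 CPM in C1 to C3, against 20.7 to 37.4 CPM (median 28.4) in suspension. Pcna, the sliding clamp of DNA replication and repair, rose (log2 fold change 1.06, SE 0.18, adjusted p = 0.00230), and the groups did not overlap. It was the call that held among 24 cell cycle genes. Of these, 3 were higher (12.5%) and 2 lower (8.33%), near the shares over all genes tested (8.03% and 10.4%). The proliferation marker Mki67 did not pass (0.94, adjusted p = 0.110). Rises on the p53 list numbered 3 without C1, 3 without C2 and 3 without C3, and without the block 2. Pmaip1 and Pcna no longer passed without replicate 1 in both groups (adjusted p 0.108 to 0.125). Pmaip1 no longer passed with N1 to N3 alone as controls (adjusted p = 0.213).

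**Figure D3:**
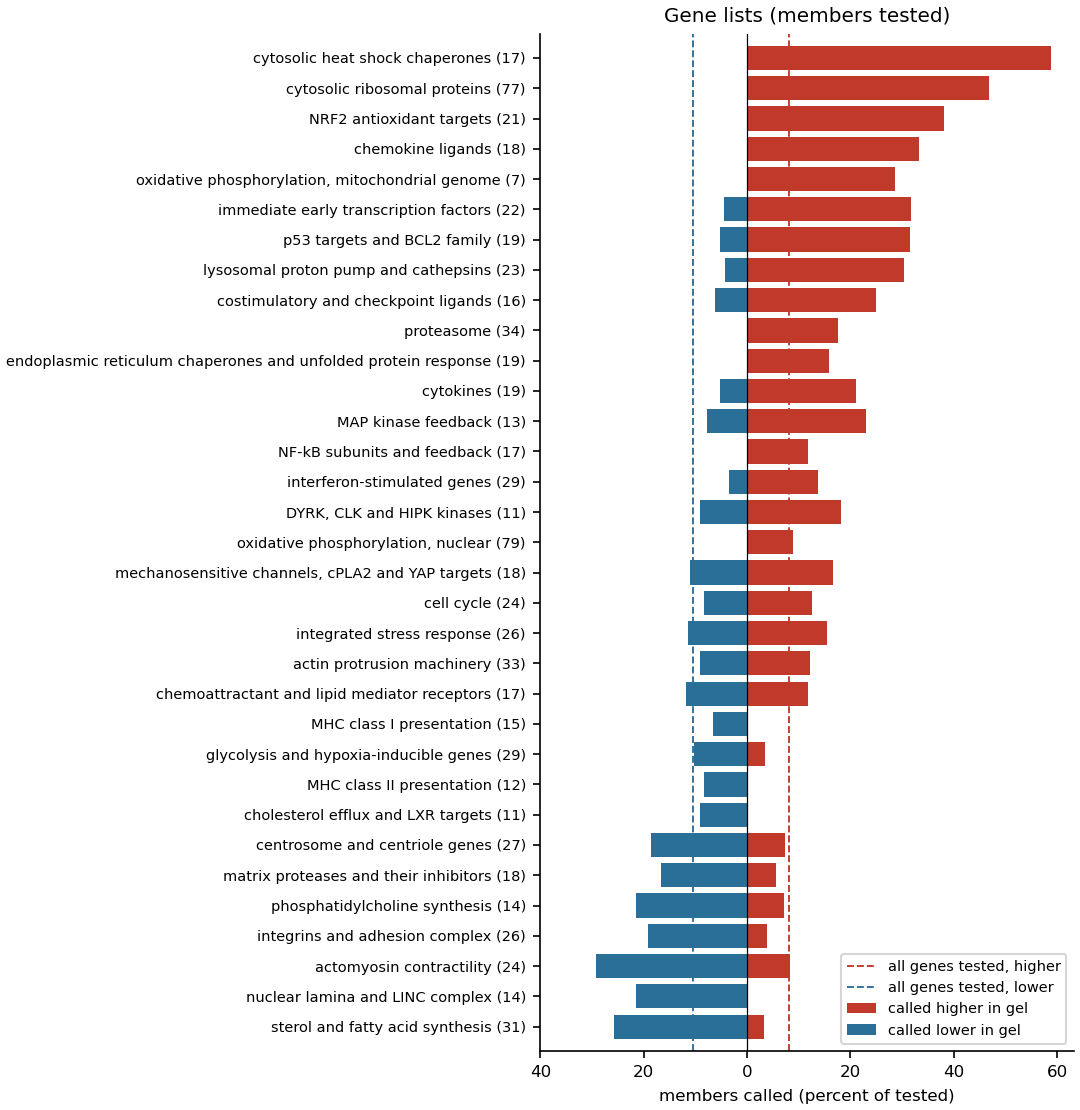
For each of the 33 gene lists, red bars to the right give the percentage of tested members called higher and blue bars to the left the percentage called lower, with the number tested in parentheses and dashed lines at the shares over all genes tested (8.03% and 10.4%). Chaperones (58.8%), ribosomal proteins (46.8%) and NRF2 targets (38.1%) have the longest red bars, and contractility (29.2%) and sterol synthesis (25.8%) the longest blue ones.

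Genes of cytosolic ribosomal proteins were higher in 36 of 77 (46.8%) and lower in 0, with a median log2 fold change of 0.66. Rpl7 had 274, 453 and 664 CPM in C1 to C3, against 70.5 to 385 CPM (median 209) in suspension. Rpl7, of the large subunit, rose 2.30-fold, and C1 lay inside the suspension range (log2 fold change 1.20, SE 0.28, adjusted p = 0.0115). Rpl27 (1.69), Rps24 (1.11), Rpl27a (0.89) and Rpl4 were the other calls that held. The largest change that did not pass was a fall, that of Rps6 (−1.85, adjusted p = 0.223). Rps6 had 0.206, 0.0702 and 0 CPM in C1 to C3 and 0.204 to 0.622 CPM in suspension, near the floor. Ribosomal protein genes have many processed pseudogenes, and how reads matching several genes were counted is not given in the sources used here, so their levels are uncertain. The count was 9 without C1, 6 without C2, 12 without C3, 19 without P1, 17 without P3 and 18 without N1, and 1 without the replicate block. Rpl7, Rps24 and Rpl27a no longer passed without replicate 1 in both groups (adjusted p 0.125 to 0.165) or without the block (adjusted p 0.145 to 0.269). Rpl27a no longer passed without replicate 3 in both groups (adjusted p = 0.130).

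Some mitochondrial transcripts were higher as well. mt-Rnr2 had 4795, 4434 and 8559 CPM in C1 to C3, against 513 to 2429 CPM (median 1009) in suspension. This large ribosomal RNA of the mitochondrion was higher in every gel library than in any suspension library (log2 fold change 2.31, SE 0.39, adjusted p = 0.00224). The libraries were made for mRNA, and how far counts of a ribosomal RNA follow its level was not tested. At 4.4 mg/ml its libraries spanned 1439 to 17373 CPM. mt-Co1, a subunit of cytochrome oxidase, had 6039, 7022 and 2722 CPM in the gel and 802 to 3811 CPM (median 1937) in suspension (log2 fold change 1.43, SE 0.31, adjusted p = 0.00859). It was 1 of 2 of 7 protein genes of the mitochondrial genome called higher, and the list's median of 0.71 became 0.039 with GC and length offsets. Of the nuclear genes of oxidative phosphorylation 7 of 79 were higher (8.86%, near the 8.03% over all genes tested) and 0 lower (median 0.38). Of proteasome subunits 6 of 34 (17.6%) were higher and 0 lower (median 0.29). Of the lysosomal proton pump and cathepsins 7 of 23 (30.4%) were higher and 1 lower (median 0.34). In these 3 lists 0 calls held in all 9 omissions, and without the block they had 0, 1 and 1 rises. Rises of the nuclear list numbered 2 without C1, 0 without C2, 1 without C3, 3 without P1, 22 without P2, 2 without P3 and 2 without N1, those of the proteasome list 1 without C1, 0 without C2, 2 without C3, 2 without P1, 2 without P3 and 2 without N1, those of the lysosomal list 1 without C1, 0 without C2, 3 without C3, 4 without P1, 3 without P3 and 3 without N3 and those of the mitochondrial genome 1 without C2, 1 without C3 and 5 without N2. mt-Co1 no longer passed without the block (adjusted p = 0.188).

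Other large rises lay outside the lists. Tlcd2 had 33.6, 10.0 and 5.51 CPM in C1 to C3, against 0.572 to 2.56 CPM (median 1.63) in suspension. Tlcd2, a TLC domain membrane protein, had the largest rise among genes eligible to be named, 9.02-fold, and the groups did not overlap (log2 fold change 3.17, SE 0.37, adjusted p = 0.000512). Slco4a1 had 533, 166 and 44.1 CPM in C1 to C3, against 8.29 to 91.0 CPM (median 40.8) in suspension. Slco4a1, an organic anion transporter, rose 5.37-fold, and C3 lay inside the suspension range (log2 fold change 2.42, SE 0.34, adjusted p = 0.00106). The repressor gene Gfi1 (2.40) and the F-box gene Fbxo30 (2.15) rose on the log2 scale with calls that held, and the potassium channel gene Kcnj2 (2.36) and Zc3hav1l (2.44) with calls that were lost without C1 (adjusted p 0.117 and 0.301). The vault RNA Vaultrc5 (3.16) had 0.823, 0.983 and 36.7 CPM in C1 to C3 and 0.0911 to 2.72 CPM (median 0.484) in suspension, and its call was lost without C3 (adjusted p = 0.580). With Hspa1b, Hspa4l, Ptgs2, mt-Rnr2 and Hspa1a these made up the 12 largest rises among such genes. Gfi1 and Fbxo30 no longer passed without replicate 1 in both groups (adjusted p 0.112 to 0.125).

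Genes of sterol and fatty acid synthesis were lower in 8 of 31 (25.8%) and higher in 1, with a median log2 fold change of −0.42. Acaca had 2.06, 6.53 and 6.33 CPM in C1 to C3, against 5.16 to 24.9 CPM (median 10.4) in suspension. Acaca encodes acetyl-CoA carboxylase 1, the committed step of fatty acid synthesis, and fell 2.63-fold, although C2 and C3 lay inside the suspension range (log2 fold change −1.40, SE 0.27, adjusted p = 0.00480). The call held, and Mvk had the largest change that did not pass (−0.95, adjusted p = 0.129). The falls numbered 4 without C1, 3 without C2, 2 without C3 and 4 without P1, 5 with GC and length offsets (and 2 rises) and 1 without the replicate block. Acaca no longer passed without replicate 1 in both groups (adjusted p = 0.126), without the block (adjusted p = 0.154) or with P1 to P3 alone as controls (adjusted p = 0.101).

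Genes of the centrosome and the nuclear lamina were lower in part. Crocc had 0.686, 0.913 and 0.298 CPM in C1 to C3, against 3.07 to 10.4 CPM (median 5.17) in suspension. Crocc encodes rootletin, which links the pair of centrioles, and no gel library reached the lowest suspension library (log2 fold change −3.08, SE 0.59, adjusted p = 0.00438). Cep250 had 12.4, 47.9 and 38.9 CPM in C1 to C3, against 45.5 to 113 CPM (median 78.6) in suspension. Cep250 encodes C-Nap1, the anchor of that linker, and C2 lay inside the suspension range (log2 fold change −1.35, SE 0.26, adjusted p = 0.00431). Cep164, of the distal appendages, had 4.46, 6.25 and 2.83 CPM in the gel and 6.56 to 24.1 CPM (median 16.9) in suspension (log2 fold change −1.75, SE 0.35, adjusted p = 0.00525). Of 27 centrosome genes 5 were lower and 2 higher (median −0.25), these 3 calls held, and Cntln did not pass (−1.07, adjusted p = 0.301). Lmnb2 had 3.70, 8.15 and 4.02 CPM in C1 to C3, against 14.1 to 19.9 CPM in suspension. Lmnb2 encodes lamin B2 and fell 3.22-fold without overlap (log2 fold change −1.69, SE 0.34, adjusted p = 0.00571). It was the call that held among 14 genes of the lamina and the linkers from nucleus to cytoskeleton, 3 of which were lower and 0 higher. The lamina median of −0.37 became 0.019 with GC and length offsets, which left 2 lamina and 3 centrosome falls. Centrosome falls numbered 3 without C1, 3 without C2 and 3 without C3, lamina falls 1 without C2 and 1 without C3, and without the block 2 and 1. Crocc, Cep250, Cep164 and Lmnb2 no longer passed without replicate 1 in both groups (adjusted p 0.114 to 0.147). Cep250 no longer passed without the block (adjusted p = 0.202).

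Adhesion and contractility genes had more falls than rises before offsets for GC content and length. Itgb7 had 25.2, 19.9 and 13.3 CPM in C1 to C3, against 32.0 to 63.5 CPM (median 53.1) in suspension. Itgb7, the beta 7 integrin, fell 2.78-fold and the groups did not overlap (log2 fold change −1.47, SE 0.30, adjusted p = 0.00609). Of 26 integrin and adhesion genes 5 (19.2%) were lower and 1 (3.85%) higher (median −0.23). Of 24 contractility genes 7 (29.2%) were lower and 2 (8.33%) higher (median 0.03). Over all genes tested 10.4% fell and 8.03% rose, so the rises of both lists lay near or below the share of all genes. Arhgef1, an activator of RhoA, had 103, 154 and 101 CPM in the gel and 147 to 297 CPM (median 191) in suspension, and C2 lay inside the suspension range (log2 fold change −0.75, SE 0.18, adjusted p = 0.0147). Itgb7 and Arhgef1 were the calls of these 2 lists that held. With GC and length offsets the adhesion list had 2 falls and 4 rises and the contractility list 1 fall and 4 rises, and Arhgef1 had an adjusted p of 0.322. Actin protrusion genes were higher in 4 of 33 (12.1%) and lower in 3 (9.09%), with 0 calls that held. These shares lie near the 8.03% and 10.4% over all genes tested. Timp3, a matrix-bound inhibitor of metalloproteinases, had 3.70, 8.36 and 4.39 CPM in the gel and 0.696 to 2.96 CPM (median 1.71) in suspension, and the groups did not overlap (log2 fold change 1.63, SE 0.34, adjusted p = 0.00668). It was the call that held among 18 genes of matrix proteases and their inhibitors, 1 of which was higher and 3 lower. Of 18 genes on a mixed list of mechanosensitive channels, cPLA2 and other lipid mediator genes, and YAP pathway genes 3 were higher and 2 lower, and Ptgs2, of the lipid mediator genes, was the call that held. Adhesion falls numbered 1 without C1, 2 without C2, 1 without C3, 3 without P3 and 3 without N3, and contractility falls 1 without C1, 2 without C2, 1 without C3, 3 without P1, 3 without N1 and 4 without N3. Without the block 1 adhesion, 0 contractility and 0 protrusion genes passed. Arhgef1 no longer passed without replicate 1 in both groups (adjusted p = 0.248), without replicate 3 in both groups (adjusted p = 0.118), without the block (adjusted p = 0.132) or with N1 to N3 alone as controls (adjusted p = 0.202).

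Antigen presentation genes were called no more often than all genes tested, and the CCL19 receptor was not called. Of 12 class II genes 1 (8.33%) was lower, the transactivator gene Ciita (−1.05). Of 15 class I genes 1 (6.67%) was lower, the transactivator gene Nlrc5 (−1.02). Both shares lie below the 10.4% over all genes tested, and 0 genes of either list were called higher. Both calls were lost without C1 (adjusted p 0.172 and 0.131), and that of Nlrc5 also without C2, C3, P1, P3 or N2. H2-Ab1 had 4116, 3663 and 5149.5 CPM in C1 to C3, against 2605 to 4756 CPM (median 3902) in suspension. This class II beta chain gene overlapped between the groups (log2 fold change 0.22, SE 0.31, adjusted p = 0.690). Ccr7 had 4062, 3945 and 4629.7 CPM in C1 to C3, against 2342 to 6425 CPM (median 3874) in suspension. Ccr7, the receptor for CCL19, overlapped as well (log2 fold change 0.15, SE 0.26, adjusted p = 0.763). Gpr183, a receptor for oxysterols that guides immune cells, rose 2.09-fold (log2 fold change 1.07, SE 0.24, adjusted p = 0.0111), with 38.2, 30.1 and 29.2 CPM in the gel and 10.1 to 23.0 CPM (median 15.5) in suspension. It was the call that held among 17 receptors for attractants and lipid mediators. Of these, 2 were higher (11.8%) and 2 lower (11.8%), near the shares over all genes tested (8.03% and 10.4%). Pdcd1lg2 (PD-L2, 0.82) was the call that held among 16 costimulatory and checkpoint ligands, with 4 higher and 1 lower. The glycolysis and hypoxia list had 1 rise (3.45%) and 3 falls (10.3%) in 29, with 0 calls that held. The sterol efflux list had 1 fall in 11 (9.09%), which did not hold. Over all genes tested 10.4% fell. Abca1, the cholesterol exporter, did not pass (−0.46, adjusted p = 0.550). Gpr183 and Pdcd1lg2 no longer passed without replicate 1 in both groups (adjusted p 0.125 to 0.138). Pdcd1lg2 no longer passed without the block (adjusted p = 0.148).

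Eosinophil genes had the lowest median of the marker lists. All 8 tested of 9 listed genes were called lower, with a median log2 fold change of −3.13, and 5 of them were among the 12 largest falls. Prg2 had 23.1, 87.4 and 23.8 CPM in C1 to C3, against 83.7 to 1078 CPM (median 277) in suspension. Prg2 encodes the major basic protein of eosinophil granules, and C2 lay inside the suspension range (log2 fold change −3.23, SE 0.72, adjusted p = 0.0101). Epx had 3.63, 14.5 and 3.65 CPM in C1 to C3, against 19.4 to 163 CPM (median 33.4) in suspension. Epx encodes eosinophil peroxidase, and the groups did not overlap (log2 fold change −3.04, SE 0.63, adjusted p = 0.00638). Ccr3 had 0.823, 0.281 and 0 CPM in C1 to C3, against 1.94 to 9.42 CPM (median 4.02) in suspension. Ccr3, the eotaxin receptor, fell without overlap (log2 fold change −3.88, SE 0.83, adjusted p = 0.00732), and C3 held no count of it. Ear6 (−2.62) and Ear1 (−4.04) encode ribonucleases of a family of near-identical genes, so their counts are uncertain, and the call of Ear1 was lost without C2 or C3 (adjusted p up to 0.150). Alox15 had 0.617, 3.09 and 0.521 CPM in C1 to C3, against 2.98 to 27.9 CPM (median 15.1) in suspension. Alox15, a lipoxygenase that is not on the list, fell 10.3-fold, and C2 lay inside the suspension range (log2 fold change −3.36, SE 0.58, adjusted p = 0.00263). The summed eosinophil level was 33.0 to 123 CPM in the gel and 133 to 1373 CPM in suspension, and fewer eosinophils in the gel cannot be told apart from less of this RNA per cell. Omitting C2 or C3 left 5 and 5 of the 8 calls, and no block left 5. Epx no longer passed without the block (adjusted p = 0.132).

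Neutrophil markers were lower in 4 of 15 genes, with a list median of −0.093, 0 calls that held and 0 calls without the block. Their summed levels were 3655 to 8758 CPM in the gel and 1973 to 19464 CPM in suspension. Lcn2 alone held 2412 of the 3655 CPM in C1 and 9040 of the 19464 CPM in P2. Macrophage markers gave 0 calls in 14 genes by edgeR and 0 by DESeq2, with summed levels of 1008 to 6225 CPM in the gel and 700.0 to 7078 CPM in suspension. In replicate 1 the sums were 6225 CPM in C1, 5594 in N1 and 7078 in P1, against 700.0 to 2753 CPM in replicates 2 and 3. DC marker sums were 34864 to 40618 CPM in replicate 1 and 62552 to 101454 CPM in replicates 2 and 3. Replicate 1 was also the number whose omission from both groups left the fewest calls, 198. Of 9 basophil and mast cell markers 8 had a negative log2 fold change, with a list median of −0.81. Kit was the 1 called lower (−1.14), a call lost without C1 or C3 (adjusted p up to 0.152). The lists of B cells, T and NK cells, plasmacytoid DCs, erythroid cells and stromal cells gave 0 calls in 6, 1, 2, 1 and 5 genes tested, and the NK cell marker Ncr1 was at 0 in all 9 libraries. The part of other cell types in the changes of the DC genes above was not tested.

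**Figure D4:**
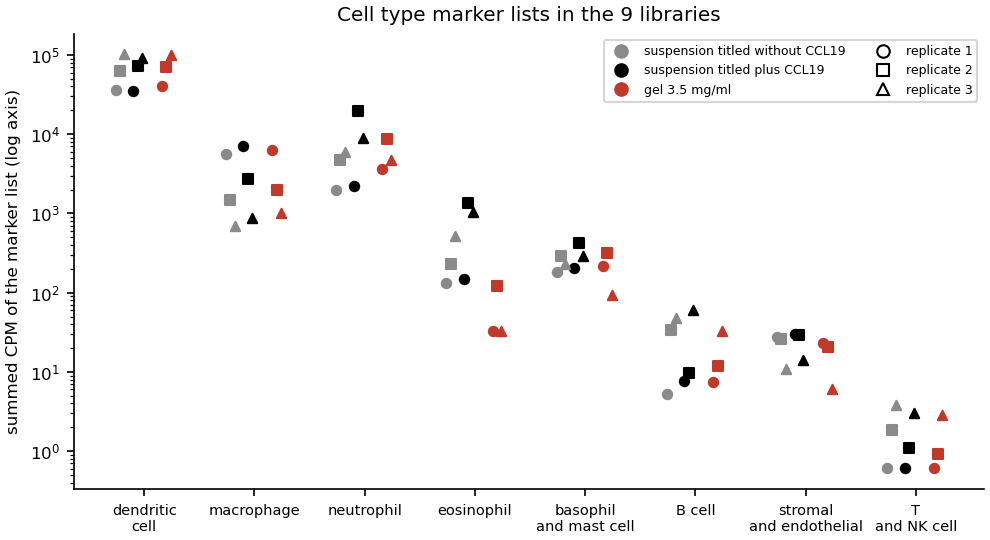
Summed CPM on raw library totals (log axis) of 8 cell type marker lists in the 9 libraries, with grey for suspension titled without CCL19, black for suspension titled plus CCL19, red for the gel, and circles, squares and triangles for replicates 1, 2 and 3. In the eosinophil list the gel libraries (33.0 to 123 CPM) lie below the suspension libraries (133 to 1373 CPM), and the sums of DC and macrophage markers are closer within a replicate number than within a group.

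Further large falls were those of Col5a3, a fibrillar collagen chain, Angel1 (−2.44), the semaphorin gene Sema4f (−2.43), the delta opioid receptor gene Oprd1 and Zfp395 (−2.35), which complete the 12 with Crocc, Alox15 and the eosinophil genes. Oprd1 had 2.26, 0.421 and 0.521 CPM in C1 to C3, against 2.43 to 8.00 CPM (median 4.93) in suspension. Col5a3 had 2.06, 0.632 and 1.12 CPM in C1 to C3, against 3.29 to 17.3 CPM (median 7.07) in suspension. The groups did not overlap for either gene (log2 fold change −2.35, SE 0.49, adjusted p = 0.00649 for Oprd1, and log2 fold change −2.59, SE 0.63, adjusted p = 0.0140 for Col5a3). Zfp395 had 8.64, 1.19 and 0 CPM in C1 to C3 and 0.869 to 79.8 CPM (median 2.82) in suspension, so its ranges overlapped. The calls of Sema4f (up to 0.137) without C1 or C2 and of Zfp395 (up to 0.208) without C1, C2, C3, P1, P3 or N1 were lost (adjusted p in parentheses). Angel1 no longer passed without replicate 1 in both groups (adjusted p = 0.124). Col5a3 no longer passed without replicate 3 in both groups (adjusted p = 0.128).

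Between the 3.5 mg/ml gel and each other gel no gene passed in the same fit. At an FDR of 0.1, edgeR called 0 of 13844 genes (0%) against each of 1.7, 2.6 and 4.4 mg/ml, the unadjusted p was under 0.05 for 381, 580 and 1448 genes, and DESeq2 with the same block called 0, 0 and 261. The count against 4.4 mg/ml was 342 without replicate 1 of the 4.4 mg/ml gel, 33 without its replicate 3 and 5 without C1. Chka had 86.9 ± 11.6, 139 ± 30.3 and 278 ± 36.4 CPM (SD, n = 3 each) at 1.7, 2.6 and 4.4 mg/ml beside 132 ± 11.1 CPM at 3.5 mg/ml. Its log2 difference of 3.5 from 2.6 mg/ml was −0.056 (SE 0.21, adjusted p = 0.978), and that from 4.4 mg/ml was −1.06 (SE 0.21, adjusted p = 0.232), with the libraries at 3.5 mg/ml all below those at 4.4 mg/ml. Dyrk3 had 3.62 ± 2.02, 6.13 ± 0.850 and 11.8 ± 2.81 CPM in those gels and 6.14 ± 2.09 CPM at 3.5 mg/ml, and its log2 difference from 4.4 mg/ml was −0.97 (SE 0.37, adjusted p = 0.401). Hspa4l had 165 ± 78.3, 348 ± 96.4 and 244 ± 118 CPM and 239 ± 131 CPM at 3.5 mg/ml, and the SD range at 3.5 mg/ml overlapped that of each other gel. A p that misses the threshold with 3 libraries a group does not show that the gels were alike.

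**Figure D5:**
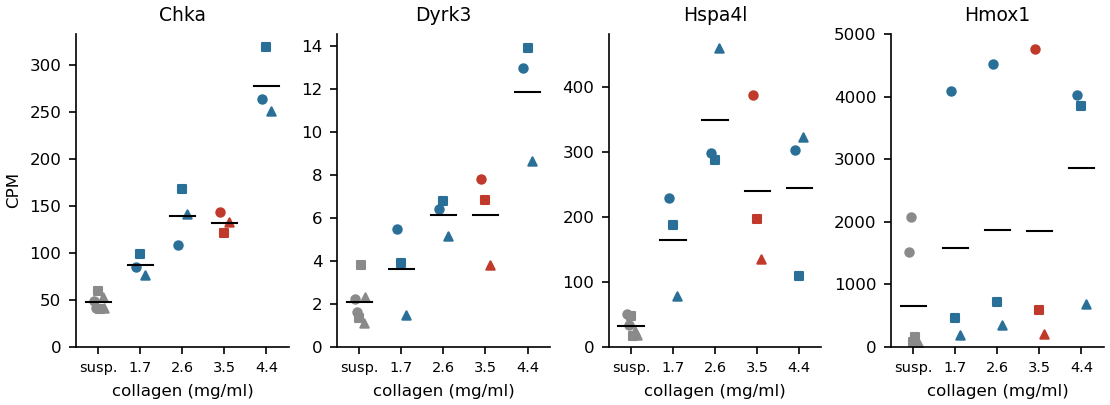
Levels in CPM (linear axes from 0) of Chka, Dyrk3, Hspa4l and Hmox1 in suspension (6 libraries, grey), in the gels of 1.7, 2.6 and 4.4 mg/ml (3 libraries each, blue) and of 3.5 mg/ml (red), with circles, squares and triangles for replicates 1, 2 and 3 and bars at the group means. For Chka all 3 libraries at 3.5 mg/ml (121 to 143 CPM) lie above all 6 of suspension and below all 3 at 4.4 mg/ml.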

How the data were processed

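RNA-seq libraries (stranded mRNA, 50 base single-end reads per the labels) were made from DCs in collagen gels or in suspension. The authors aligned the reads with STAR 2.7.0f to GRCm38 and deposited whole-number counts for 29875 Ensembl genes in 18 libraries. The study's methods name RSEM, which apportions reads matching several genes, for TPM values. Whether the deposited counts came from it is not given in the sources used here. Groups came from the sample titles. The members of the comparison and the gene lists were chosen with earlier results of these data known.

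Counts were scaled by TMM, filtered with filterByExpr (13844 genes kept) and fitted for all 18 libraries with edgeR 4.0.16 (quasi-likelihood F-test, replicate number as a block, Benjamini-Hochberg adjustment, FDR 0.1) in R 4.3.3. DESeq2 1.42.0 served as an alternative. Each SE is the fitted log2 fold change divided by the root of F, and a prior count of 2 entered log2 CPM values. The biological coefficient of variation was 33.1%. Replicate numbers pair the libraries because libraries of a number share a date and a lane in their names. After subtracting group means, the mean r over genes was 0.51 (0.079 to 0.85) in the 9 pairs of the same number within the 9 libraries and −0.25 in 18 pairs of different numbers, where genes are no replicates. Deviations from a group mean sum to 0 over its 3 libraries, so a positive r in the former forces a negative one in the latter. The negative r is therefore no separate evidence for the pairing. No 2 of the 18 libraries held identical counts (0 of 153 pairs). Some gene results are not reported here.

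Genes eligible to be named were the 12 largest rises and falls among genes past the threshold with 1 sign in 3 of 3 replicates, at least 5 CPM in the higher group and no predicted name, up to 3 past the threshold and the largest change not past it for each list, and Dyrk3 and Chka. Of the list genes, mainly those whose call passed in each of 9 fits that leave out 1 library are described, a choice made after their values were seen, as were the choice of marker genes, further chaperones and list members, H2-Ab1 and Ccr7. Counts were also simulated for the comparison (13527 genes run, replicate effects included). In them 100 genes were changed by 1 and 100 by 2 on the log2 scale, and all others were equal. The block recovered 42 of the former and 93 of the latter with 16 false calls, and the fit without it 8 and 69 with 2. In the data 18.4% of genes were called, which changes the p-value cut at an FDR of 0.1. The simulated recovery is therefore no recovery rate for the data. Alternatives were other scaling, filters, thresholds, libraries and offsets (loess, span 0.5, for 13834 genes with GC and length).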

Additional observations from a re-analysis of the deposited data

Results flagged for a closer look

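For each gene the text draws on and for the total counts, the 6 suspension libraries were searched for a library with a large gap to the nearest other. The limit was Dixon's 95% critical value for 6 samples, and 10 of 137 items exceeded it. That value assumes 6 independent normal draws, which libraries paired by replicate number are not. The count is therefore not set against a rate by chance. In P2, Klf2 stood at 28.5 CPM (the other 5 suspension libraries at 6.24 to 12.2), S1pr4 at 48.4 (others 9.78 to 17.1), Mmp9 at 257 (others 67.3 to 109) and the eosinophil gene Epx at 163 (others 19.4 to 71.8). In N2, mt-Nd4 stood at 829 CPM (others 349.9 to 419), Atp6v1e1 at 149 (others 206 to 237), Stil at 2.28 (others 0.811 to 1.10), Lmnb2 at 19.9 (others 14.1 to 16.2) and Syne1 at 100.4 (others 32.2 to 45.8). In N3, Pcyt2 stood at 60.0 CPM (others 29.6 to 37.2). In the fit without P2 the genes Klf2, Mmp9 and Epx still passed and S1pr4 did not, without N2 mt-Nd4, Atp6v1e1, Stil and Lmnb2 passed and Syne1 did not, and without N3 Pcyt2 passed.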

How the results depend on the processing

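The number of genes called between the gel and suspension (2551, 1112 higher and 1439 lower) was 679 (273 and 406) without the replicate block, 1492 (640 and 852) at an FDR of 0.05 and 1088 (400 and 688) with N1 to N3 as the controls. Leaving out 1 library gave 895 to 2672 calls (375 to 1296 higher, 520 to 1376 lower), and leaving out a replicate number in both groups 198 to 1439 (113 to 692 and 85 to 747). DESeq2 with the block (3200), DESeq2 size factors in edgeR (2602), no filter (2207), a mean of at least 1 CPM (2547), a fit of the 9 libraries alone (3503), P1 to P3 as the controls (2701) and GC and length offsets (2686) stayed within 1.5 times of it, and with these offsets 1653 rose and 1033 fell. Against the other gels, where 0 genes passed, no filter gave 9 at 1.7, 56 at 2.6 and 411 at 4.4 mg/ml, a fit of the compared libraries alone 698 at 1.7 mg/ml, and DESeq2 261 and the offsets 6 at 4.4 mg/ml. Single omissions gave 0 to 342 genes at 4.4 mg/ml and the omission of a replicate number 0 to 49, and 0 to 0 at 1.7 and 2.6 mg/ml. Directions reversed for genes that were not called, Ccr7 (−0.098 without replicate 1 and −0.003 without P1, with −0.098 to 0.40 over all omissions), Abca1 (0.0080 with P1 to P3 as the controls) and Tead1 (−0.18 without C2, with −0.18 to 1.26 over all omissions). Over all genes and alternatives followed, 3174 comparisons stayed on their side of the threshold, 821 lost it, 83 gained it and 4 reversed. Causes were not tested. In simulated data 42 of 100 genes changed 2-fold were recovered. There a far smaller share of genes was changed than was called here, so how often such a change was missed in the data was not measured.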
